A study of Homo sapiens with 6 samples.

Results

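Extracellular modulators of bone morphogenetic protein (BMP) and activin signaling were examined in lung fibroblasts after silencing of TAZ. The 9 genes were taken by symbol from the table of read counts (GREM1, FST, FSTL1, FSTL3, NOG, CRIM1, RGMB, TWSG1 and BAMBI). All 9 were found among its 23355 gene entries, and all 9 passed the filter on low counts that left 14053 genes for testing. The cells were HFL-1, an established line of human fetal lung fibroblasts, transiently transfected with a non-targeting siRNA (siNTC) or with siTAZ #1 or siTAZ #2, which target TAZ, the transcriptional co-activator encoded by WWTR1. Total RNA was taken at 48 h and sequenced in 2 biological replicates per group, all of this 1 line. Every group received an siRNA with a lipid transfection reagent, and untransfected cells were not analysed here.

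BMPs and activins are secreted dimers of the TGF-β superfamily that assemble type I and type II receptor kinases, which in turn phosphorylate SMAD proteins. Secreted antagonists act upstream of the receptors by holding the ligand in an inactive complex, while membrane proteins can retain a ligand at the cell surface or present it to its receptors. In the lung, gremlin and follistatin family proteins are known as modifiers of the balance between BMP, activin and TGF-β signals during development and fibrosis.

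The members differ in how they act. Gremlin 1 (GREM1) and noggin (NOG) are secreted proteins that bind BMPs and block receptor contact. Follistatin (FST) and follistatin-like 3 (FSTL3) bind activins with high affinity, and follistatin-like 1 (FSTL1) is a secreted glycoprotein of the wider follistatin family. CRIM1 is a membrane protein with cysteine-rich repeats of the kind found in chordin. RGMB is a glycolipid-anchored BMP co-receptor, known to strengthen BMP signaling and thus not an antagonist. Twisted gastrulation (TWSG1) binds BMPs and chordin and can oppose or favor signaling. BAMBI is a membrane pseudoreceptor without a kinase domain.

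TAZ has no DNA-binding domain and is brought to chromatin mostly by TEAD factors, whose core motif is GGAATG. Promoter windows of 300 bases, from 250 bases before to 50 bases after an annotated start, were available from RefSeq (GRCh38.p14) for 7 of the 9 genes, as 10 windows. There was none for CRIM1 and NOG. GGAATG, or CATTCC on the other strand, was found in 1 of these 10 windows, against 14% of all 35116 windows of that length, so the window of RGMB that held it is shown beside those of 2 genes that fell and of TWSG1, which rose. The match in RGMB started 224 bases before the annotated start (position -224) and is in capitals. A match is a description of letters, and its absence from a window says nothing about sites elsewhere in the gene. The windows are given 5′ to 3′ on the strand of the gene, which is the plus strand for all 4.
RGMB, window 2, chr5:98769186-98769485: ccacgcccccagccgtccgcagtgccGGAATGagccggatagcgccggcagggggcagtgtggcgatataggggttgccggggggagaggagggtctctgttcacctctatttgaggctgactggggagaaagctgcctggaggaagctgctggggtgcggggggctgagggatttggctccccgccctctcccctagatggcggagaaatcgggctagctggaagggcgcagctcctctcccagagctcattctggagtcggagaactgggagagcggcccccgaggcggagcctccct
GREM1, window 1, chr15:32717754-32718053: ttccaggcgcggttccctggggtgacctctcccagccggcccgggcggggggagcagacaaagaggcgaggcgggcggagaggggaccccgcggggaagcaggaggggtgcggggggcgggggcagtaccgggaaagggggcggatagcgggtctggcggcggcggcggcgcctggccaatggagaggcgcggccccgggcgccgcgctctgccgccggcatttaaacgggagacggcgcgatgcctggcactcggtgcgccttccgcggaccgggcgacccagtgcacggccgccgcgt
FST, chr5:53480379-53480678: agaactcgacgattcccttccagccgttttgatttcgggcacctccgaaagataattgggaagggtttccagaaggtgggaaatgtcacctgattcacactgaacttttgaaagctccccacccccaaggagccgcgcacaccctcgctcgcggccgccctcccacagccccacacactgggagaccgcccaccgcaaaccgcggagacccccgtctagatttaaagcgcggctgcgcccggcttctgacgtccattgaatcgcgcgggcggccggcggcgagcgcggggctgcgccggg
TWSG1, chr18:9334523-9334822: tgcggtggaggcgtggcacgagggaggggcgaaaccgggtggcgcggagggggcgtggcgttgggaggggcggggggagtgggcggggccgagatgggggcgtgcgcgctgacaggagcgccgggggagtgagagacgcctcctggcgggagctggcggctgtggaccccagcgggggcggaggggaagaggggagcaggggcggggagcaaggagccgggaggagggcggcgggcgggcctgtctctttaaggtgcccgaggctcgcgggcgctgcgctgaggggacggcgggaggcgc

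The libraries held 15648055 to 32078188 counts. Levels are given as CPM, the counts of a gene after scaling its library to a common size by TMM, a normalization that removes differences in library composition, with the mean ± SD of the 2 libraries. The 2 libraries of a group were further apart than counting error alone allows (mean chi-square over genes 5.56 in siNTC, 91.6 in siTAZ #1 and 11.9 in siTAZ #2). In siTAZ #1 replicate 2, counts were nearly missing from RANGAP1 on chromosome 22 to the end of the Y chromosome (0.246% of its counts, against 3.57% to 3.74% in the other libraries). The chi-square of 91.6 in siTAZ #1 includes the genes of this stretch, and their part in it was not computed. None of the 9 genes lies in that stretch, but its genes entered the fit that all genes share. The common dispersion, the estimate of spread shared by all genes in that fit, was 0.0807 with the stretch and 0.0165 without it. The 9 fibroblast markers summed to 23174 to 34966 CPM in a library, while 5 epithelial markers summed to at most 3.04 CPM, 4 endothelial markers to at most 3.50 CPM and 4 leukocyte markers to 38.2 to 75.7 CPM, and no marker was at 0 in all libraries. Among the fibroblast markers themselves, COL1A2, DCN and LUM were lower and PDGFRB was higher with both siRNAs, and their part in the results below was not tested. In bulk RNA, fewer cells that express a gene and less RNA per cell cannot be told apart.

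The targeted gene was examined first. WWTR1 was at 132 and 131 CPM in the siNTC libraries, at 26.4 and 28.4 CPM with siTAZ #1 and at 46.1 and 43.1 CPM with siTAZ #2. It was therefore lower in all 4 siTAZ libraries, 4.80-fold with siTAZ #1 (log2 fold change -2.26, standard error 0.10, FDR 0.00062) and 2.95-fold with siTAZ #2 (-1.56, standard error 0.10, FDR 0.00068). FDR here is the Benjamini-Hochberg adjusted p of edgeR's quasi-likelihood test over all genes tested. The remaining level differed between the siRNAs by -0.70 on the log2 scale (siTAZ #1 minus siTAZ #2, standard error 0.10, FDR 0.0050), and that call was lost with edgeR's exact test (FDR 0.24).

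In siNTC cells, the 9 genes covered a wide range of levels. Per kb of exon, FST (210.4 ± 2.00 CPM per kb, n = 2) and FSTL1 (181 ± 5.78) stood highest. CRIM1 (64.2 ± 1.22), GREM1 (60.4 ± 1.16), RGMB (50.8 ± 0.33) and TWSG1 (40.8 ± 1.73) came next, and FSTL3 followed at 10.5 ± 0.93 CPM per kb. NOG (2.88 ± 0.60) and BAMBI (1.58 ± 0.81) were lowest, and these 2 were the only neighbours in the order that did not lie further apart than the sum of their SDs. The order depends on the length used, since FSTL1 stood above FST and RGMB above GREM1 when the canonical transcript was taken in place of all exons. NOG and BAMBI rested on 31 to 235 counts a library. Among ligands on the same scale, chosen for their role after their values were seen, BMP4 stood at 31.5 ± 3.15 CPM per kb and INHBA, the activin A subunit, at 7.11 ± 1.27. GDF5 was at 35.7 ± 2.72 and BMP2 at 2.39 ± 0.36.

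**Figure D1:**
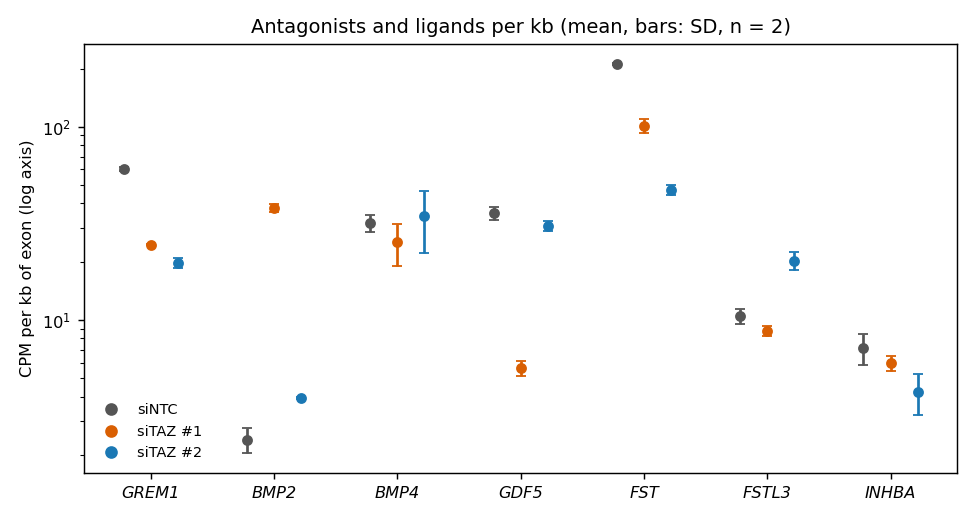
CPM per kb of exon (log axis) of the modulators GREM1, FST and FSTL3 and of 4 ligands (BMP2, BMP4, GDF5 and INHBA) in each group, as the mean with its SD (n = 2). FST falls from 210.4 CPM per kb with siNTC to 47.0 with siTAZ #2, and BMP2 rises from 2.39 to 38.0 with siTAZ #1.

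The levels with TAZ siRNA changed this order. With siTAZ #1, TWSG1 (114 ± 11.8 CPM per kb) and FST (101 ± 8.51) had the highest levels of the 9, and FSTL1 was at 71.8 ± 10.3. TWSG1 and FST then lay closer together than the sum of their SDs, as did NOG (2.98 ± 1.11) and BAMBI (1.56 ± 0.89). With siTAZ #2, FSTL1 was highest at 107 ± 3.76 CPM per kb, followed by TWSG1 at 58.5 ± 5.38 and FST at 47.0 ± 2.67. RGMB (29.0 ± 4.31), CRIM1 (24.4 ± 2.95), FSTL3 (20.3 ± 2.26) and GREM1 (19.7 ± 1.22) came next, and each of these neighbours lay closer together than the sum of their SDs.

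The question for each gene was whether its transcript depends on TAZ. With siTAZ #1, 5 of the 9 genes were lower, 1 was higher and 3 did not pass the test, while 9.78% of all genes tested were called lower and 10.8% higher. With siTAZ #2, 5 were lower, 2 were higher and 2 did not pass, against 14.4% and 14.1% of all genes. GREM1, FST, FSTL1, CRIM1 and RGMB were lower with both siRNAs, and TWSG1 was higher with both. Of all genes tested, 3.74% were lower and 5.49% higher with both. The 5 lower genes are all on the study's own list of commonly lowered genes, which was chosen on these same libraries, so their direction is not independent evidence. For GREM1, the study also reported a check of its sequencing result by PCR of reverse-transcribed RNA (qRT-PCR) in HFL-1 cells. The median log2 fold change of the 9 was -0.84 with siTAZ #1 and -0.75 with siTAZ #2, against 0.02 and 0.01 over all genes. These medians of the 9 include the 5 genes on that list and carry the same limit. Both comparisons use the same siNTC libraries. By level, these 5 genes were below both siNTC libraries in all 4 siTAZ libraries and TWSG1 was above them, and 17.5% and 18.6% of all genes showed these patterns.

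**Figure D2:**
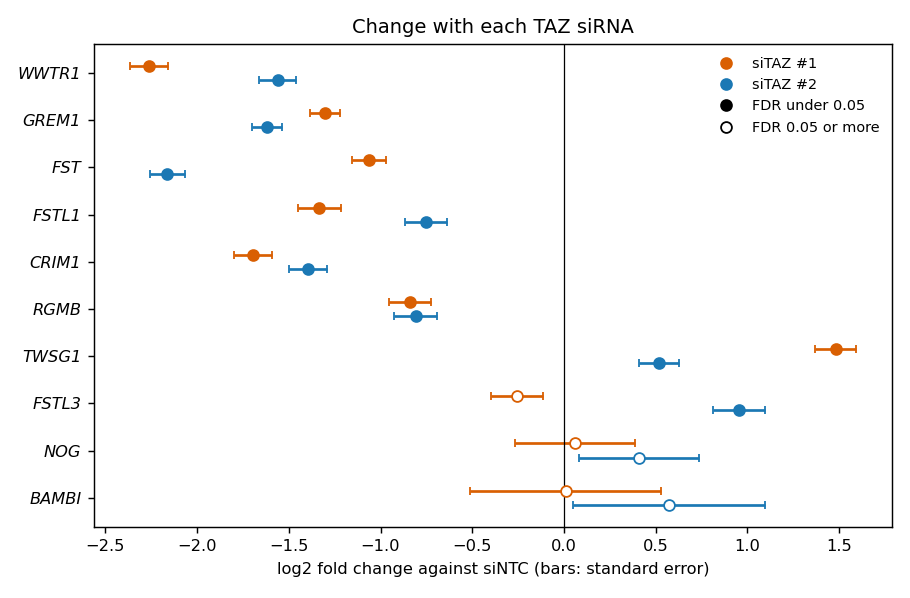
Log2 fold change against siNTC (x axis) of WWTR1 and the 9 genes with siTAZ #1 and siTAZ #2, with standard errors as bars and filled points for an FDR under 0.05. GREM1, FST, FSTL1, CRIM1 and RGMB lie left of 0 with both siRNAs, TWSG1 lies right of 0 with both, and FSTL3 lies at -0.25 with siTAZ #1 and at 0.95 with siTAZ #2.

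GREM1 (chromosome 15, 33010205 to 33037307, plus strand, GRCh37) is the gremlin member of the group. It was at 880.2 and 904.6 CPM in the siNTC libraries, at 363 and 359.8 CPM with siTAZ #1 and at 303.6 and 278 CPM with siTAZ #2. The 3 groups did not overlap, and both siTAZ groups lay far below siNTC. GREM1 fell 2.47-fold with siTAZ #1 (log2 fold change -1.30, standard error 0.08, FDR 0.00084) and 3.07-fold with siTAZ #2 (-1.62, standard error 0.08, FDR 0.00050). Both calls held in all 16 alternatives, including those that left out 1 library at a time.

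FST (chromosome 5, 52776456 to 52782964, plus strand) encodes follistatin, the main extracellular inhibitor of activins. Its siNTC libraries held 575 and 583 CPM, its siTAZ #1 libraries 294 and 261 CPM, and its siTAZ #2 libraries 135 and 124 CPM. The groups were fully separated in the order siNTC, siTAZ #1, siTAZ #2. The decrease was 2.09-fold with siTAZ #1 (log2 fold change -1.06, standard error 0.09, FDR 0.0018) and 4.48-fold with siTAZ #2 (-2.16, standard error 0.10, FDR 0.00037), and both calls held in all 16 alternatives.

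FSTL1 (chromosome 3, 120111140 to 120169863, minus strand) had the most CPM of the 9 genes. It was at 1663 and 1739 CPM with siNTC, at 744 and 606.5 CPM with siTAZ #1, and at 985 and 1035 CPM with siTAZ #2. Here siTAZ #1 gave the lower levels, the reverse of the order seen for FST, and again no groups overlapped. FSTL1 fell 2.52-fold with siTAZ #1 (log2 fold change -1.33, standard error 0.12, FDR 0.0019) and 1.68-fold with siTAZ #2 (-0.75, standard error 0.12, FDR 0.0068). The siTAZ #2 call was lost without siNTC replicate 1 (FDR 0.053), siNTC replicate 2 (FDR 0.063) or siTAZ #2 replicate 1 (FDR 0.053).

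FSTL3 (chromosome 19, 676392 to 683392, plus strand), the activin-binding relative of FST, followed another course. It was at 33.7 and 29.7 CPM with siNTC and at 27.8 and 25.4 CPM with siTAZ #1, and it stood at 66.3 and 56.6 CPM with siTAZ #2. The siTAZ #2 libraries lay above all the others. FSTL3 rose 1.94-fold with siTAZ #2 (log2 fold change 0.95, standard error 0.14, FDR 0.0063), while the value with siTAZ #1 was -0.25 (standard error 0.14, FDR 0.26). The siTAZ #2 call was lost without siNTC replicate 2 (FDR 0.064), and an offset for GC content lowered the value to 0.56 (FDR 0.034).

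**Figure D3:**
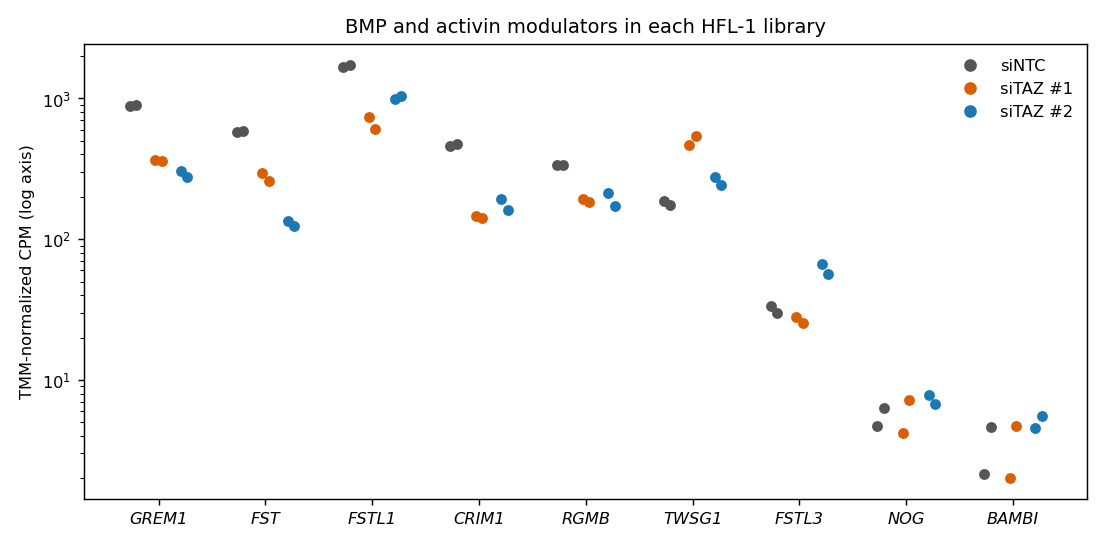
TMM-normalized CPM (log axis) of the 9 genes in each of the 6 libraries, with 1 point per library, colored by group. The siNTC points stand above the others for GREM1, FST, FSTL1, CRIM1 and RGMB and below them for TWSG1, while the points of NOG and BAMBI, between 2.00 and 7.85 CPM, are mixed.

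CRIM1 (chromosome 2, 36582921 to 36778278, plus strand) was lower with both siRNAs. It was at 460.1 and 473 CPM in the siNTC libraries, at 146 and 141 CPM with siTAZ #1 and at 192 and 162 CPM with siTAZ #2. The siTAZ groups did not overlap each other and lay far below siNTC. The decrease was 3.24-fold with siTAZ #1 (FDR 0.00084) and 2.63-fold with siTAZ #2 (FDR 0.00088), and the 2 calls held in all 16 alternatives. The end of CRIM1 overlaps FEZ2 on the opposite strand, and the strand setting of the counting is not given in the sources used here. FEZ2 was at 60.6 to 62.1 CPM with siNTC and at 51.6 to 84.6 CPM in the siTAZ libraries and did not pass the test with either siRNA (FDR 0.55 and 0.25). GREM1, FSTL1 and RGMB also lie opposite annotated non-coding genes without an entry in the table, GREM1-AS1 and RGMB-AS1 among them, so reads of the 2 strands cannot be told apart there. TWSG1 overlaps an annotated non-coding gene on its own strand, also without an entry, which spans 9335267 to 9336240.

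RGMB (chromosome 5, 98104354 to 98134347, plus strand), the co-receptor whose window 2, but not windows 1 and 3, held the TEAD core motif, was at 336 and 339 CPM with siNTC. It was at 194 and 183 CPM with siTAZ #1 and at 213 and 172 CPM with siTAZ #2. The siTAZ groups overlapped each other and lay below siNTC. RGMB fell 1.79-fold with siTAZ #1 (log2 fold change -0.84, standard error 0.12, FDR 0.0068) and 1.75-fold with siTAZ #2 (-0.81, standard error 0.12, FDR 0.0054). Among the 5 lowered genes, its decrease with siTAZ #1 was the smallest. The siTAZ #1 call was lost without either siNTC library (FDR 0.064 and 0.066), and the siTAZ #2 call without siNTC replicate 2 (FDR 0.0504).

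TWSG1 (chromosome 18, 9334765 to 9402418, plus strand) was the one member that was higher with both siRNAs. It was at 187 and 176 CPM with siNTC, at 469 and 543 CPM with siTAZ #1 and at 276 and 243 CPM with siTAZ #2. The 3 groups did not overlap. TWSG1 rose 2.79-fold with siTAZ #1 (log2 fold change 1.48, standard error 0.11, FDR 0.0013) and 1.43-fold with siTAZ #2 (0.52, standard error 0.11, FDR 0.019). The first call held in all 16 alternatives. The siTAZ #2 call was lost without siNTC replicate 1 (FDR 0.10), siNTC replicate 2 (FDR 0.14), siTAZ #2 replicate 1 (FDR 0.10) or siTAZ #2 replicate 2 (FDR 0.052).

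NOG (chromosome 17, 54671060 to 54672972, plus strand) and BAMBI (chromosome 10, 28966439 to 28971861, plus strand) did not pass the test in any comparison. NOG was at 4.69 and 6.31 CPM with siNTC, at 4.19 and 7.21 CPM with siTAZ #1 and at 7.85 and 6.76 CPM with siTAZ #2. BAMBI was at 2.16 and 4.61 CPM, at 2.00 and 4.69 CPM and at 4.58 and 5.50 CPM in the same order. The siTAZ #1 libraries of both genes spanned the siNTC libraries. The log2 fold changes of NOG had a standard error of 0.33 and lay at 0.06 with siTAZ #1 (FDR 0.91) and at 0.41 with siTAZ #2 (FDR 0.40). Those of BAMBI had a standard error of 0.52 and lay at 0.01 with siTAZ #1 (FDR 0.99) and at 0.57 with siTAZ #2 (FDR 0.46). Both standard errors are several times those of the abundant genes.

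The siRNAs were then compared with each other, since a call with one and none with the other does not show a difference. Compared with siTAZ #2, siTAZ #1 gave lower levels of 2 of the 9 genes and higher levels of 3, while 13.4% of all genes tested were called lower and 15.2% higher. FST was higher with siTAZ #1 by 1.10 on the log2 scale (standard error 0.09, FDR 0.0013) and TWSG1 by 0.96 (standard error 0.11, FDR 0.0028). FSTL3 was lower by 1.21 (log2 difference -1.21, standard error 0.14, FDR 0.0030). These 3 calls were kept in all 16 alternatives. WWTR1 was the lower with siTAZ #1, and of the 5 genes lowered by both siRNAs FST and GREM1 were less reduced with it and FSTL1 more.

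Smaller differences depended on the fit. GREM1 was higher with siTAZ #1 by 0.31 (standard error 0.08, FDR 0.032), and the call was lost in 8 of 16 alternatives, among them those without siNTC replicate 1 (FDR 0.083), siNTC replicate 2 (FDR 0.083), siTAZ #2 replicate 1 (FDR 0.066) or siTAZ #2 replicate 2 (FDR 0.15). FSTL1 was lower with siTAZ #1 by 0.58 (log2 difference -0.58, standard error 0.12, FDR 0.015), and the same libraries left out ended that call (FDR 0.053, 0.054, 0.064 and 0.098). For CRIM1 the difference was -0.30 (standard error 0.10, FDR 0.075). It passed in 4 of 16 alternatives, DESeq2 (FDR 0.029) and the offset for GC content (FDR 0.037) among them. The others left out the stretch that starts at RANGAP1 (FDR 0.033) or siTAZ #1 replicate 1. RGMB differed by -0.03 (standard error 0.12, FDR 0.87), NOG by -0.35 (standard error 0.32, FDR 0.48) and BAMBI by -0.56 (standard error 0.52, FDR 0.47). None of these 3 passed the test.

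**Figure D4:**
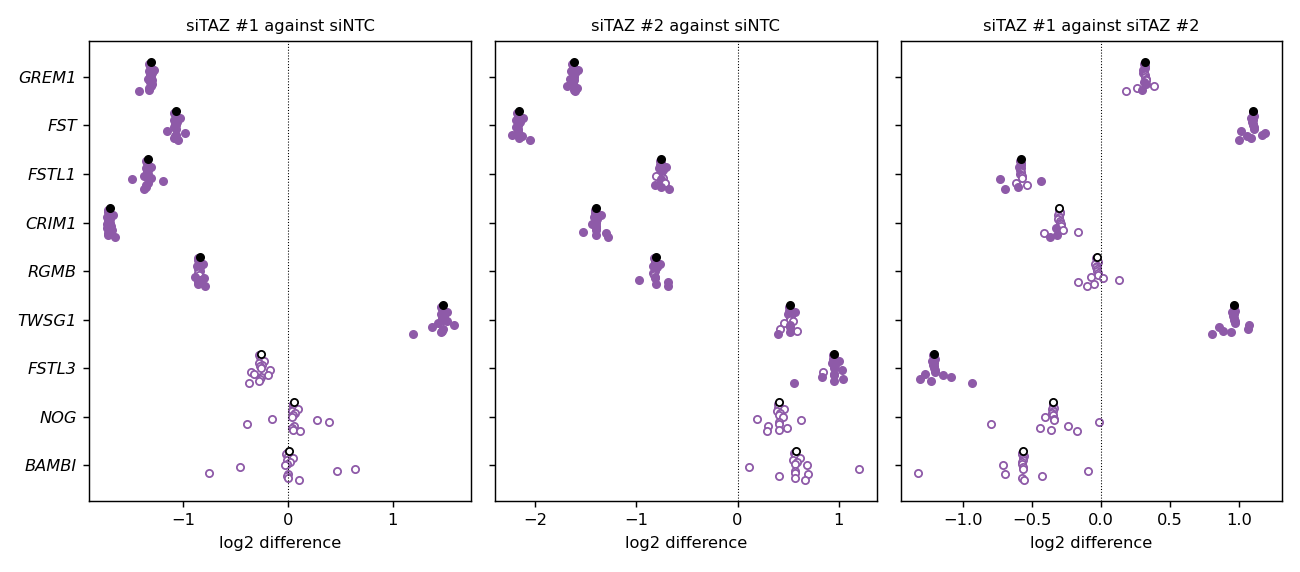
Log2 differences (x axis) of the 9 genes in the 3 comparisons under the reported fit (black) and under its alternatives (purple), filled where the FDR is under 0.05. The points of GREM1, FST and CRIM1 stay together and filled against siNTC, while those of BAMBI spread from -0.76 to 0.64 with siTAZ #1.

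The other genes of the pathway were counted from lists of modulators, ligands, receptors and signal transducers. Of 27 other modulators, 11 had enough counts to be tested, and the highest count of the rest was 25. With siTAZ #1, 1 of the 11 was lower and 4 were higher, and with siTAZ #2, 4 were lower and 2 were higher. Of all genes tested, 9.78% were called lower and 10.8% higher with siTAZ #1, and 14.4% and 14.1% with siTAZ #2. TGFBR3 (betaglycan), a membrane co-receptor for TGF-β and inhibin, was lower with both and is on the list that the study chose on these libraries. It was at 88.4 and 95.5 CPM with siNTC, at 36.0 and 31.1 CPM with siTAZ #1 and at 11.97 and 15.3 CPM with siTAZ #2 (log2 fold changes -1.45, FDR 0.0039, and -2.75, FDR 0.00064). SMOC1, a secreted BMP inhibitor, was at 2.60 and 2.33 CPM with siNTC and was higher with both siRNAs, by 1.31 on the log2 scale with each (FDR 0.037 and 0.030). These calls were lost without siNTC replicate 1 (FDR 0.16 and 0.12) or siNTC replicate 2 (FDR 0.19 and 0.15), and the second also without siTAZ #2 replicate 2 (FDR 0.13). BMPER, a secreted BMP-binding protein, was at 5.14 and 6.88 CPM with siNTC and at 0.28 and 0.85 CPM with siTAZ #2. That decrease (log2 fold change -3.44, FDR 0.0075) was not called without siNTC replicate 2. With siTAZ #1, BMPER was at 3.16 and 2.18 CPM and its value was -1.18 (FDR 0.14). This value passed without the stretch that starts at RANGAP1 (-1.21, FDR 0.049) and without siTAZ #1 replicate 1 (-1.46).

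LTBP1 and FBN1 encode matrix proteins that store latent TGF-β and BMPs in microfibrils. Both were called in opposite directions with the 2 siRNAs. FBN1 was at 468 and 472.5 CPM with siNTC, at 842 and 734 CPM with siTAZ #1 and at 245 and 262 CPM with siTAZ #2. On the log2 scale FBN1 changed by 0.74 (FDR 0.0054) and -0.89 (FDR 0.0023), and the difference of 1.64 had an FDR of 0.00062. For LTBP1 the values were 0.49 (FDR 0.015) and -0.56 (FDR 0.0075). Leaving out siNTC replicate 1 or siNTC replicate 2 ended the siTAZ #1 calls of FBN1 (FDR 0.072 and 0.070) and of LTBP1 (FDR 0.14 and 0.12), and the siTAZ #2 call of LTBP1 (FDR 0.058 and 0.073), which was lost also without siTAZ #2 replicate 1 (FDR 0.054).

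Of 24 ligands, 10 were tested. With siTAZ #1, 2 were lower and 4 higher, and with siTAZ #2, 2 were lower and 2 higher. The shares of all genes called lower and higher were 9.78% and 10.8% with siTAZ #1 and 14.4% and 14.1% with siTAZ #2. BMP2 and GDF15 were higher with both. INHBE, which is on the list that the study chose on these libraries, was lower with both. BMP2, a ligand that GREM1 binds, was at 9.38 and 7.57 CPM with siNTC, at 129.9 and 139 CPM with siTAZ #1 and at 14.1 and 13.8 CPM with siTAZ #2. It was thus 15.9-fold higher with siTAZ #1 (FDR 0.00044) and 1.64-fold higher with siTAZ #2 (FDR 0.014), and the second call was lost without siNTC replicate 2 (FDR 0.085), siTAZ #2 replicate 1 (FDR 0.069) or siTAZ #2 replicate 2 (FDR 0.070). GDF5, a BMP of joint and cartilage development, went the other way, from 88.9 and 99.1 CPM to 13.9 and 15.7 CPM with siTAZ #1 (log2 fold change -2.67, FDR 0.00062), while its value with siTAZ #2 was -0.22 (FDR 0.22).

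The activin subunits and BMP4 complete the ligands named here. INHBE, an activin subunit, fell from 8.88 and 7.95 CPM to 2.19 and 2.18 CPM with siTAZ #1 (log2 fold change -1.94, FDR 0.0049, lost without siNTC replicate 1 at FDR 0.051) and to 1.45 and 1.39 CPM with siTAZ #2 (-2.56, FDR 0.0017). INHBA, the activin A subunit that FST binds as a dimer, had log2 fold changes of -0.25 (FDR 0.44) and -0.75 (FDR 0.046), and the latter call was lost when any siNTC or siTAZ #2 library was left out (FDR 0.051 to 0.21). BMP4, at 90.7 and 105 CPM with siNTC, did not pass with either siRNA (-0.32, FDR 0.46, and 0.12, FDR 0.78), but its siTAZ #1 value was -0.60 and passed without siTAZ #1 replicate 1 (FDR 0.024).

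Among 9 receptors, all tested, 1 was higher with siTAZ #1 and 2 with siTAZ #2, while 8 and 7 did not pass. ACVR1, a type I BMP receptor, was higher with both. Of 14 SMADs, SMURFs and ID genes, siTAZ #1 gave 3 lower and 4 higher calls and siTAZ #2 gave 1 lower and 6 higher. For the receptors and for these 14 genes, the shares over all genes were 9.78% lower and 10.8% higher with siTAZ #1. With siTAZ #2 they were 14.4% and 14.1%. SMAD5, a receptor-activated SMAD of the BMP branch, was at 31.3 and 31.5 CPM with siNTC, at 105 and 114 CPM with siTAZ #1 and at 112 and 93.0 CPM with siTAZ #2 (log2 fold changes 1.80, FDR 0.00098, and 1.70, FDR 0.00080). The inhibitory SMADs were higher with siTAZ #2. SMAD6 had log2 fold changes of 0.77 (FDR 0.048) and 1.92 (FDR 0.0023), and SMAD7 of 0.77 (FDR 0.051) and 1.81 (FDR 0.0030). The siTAZ #1 call of SMAD6 was lost when any library but siTAZ #1 replicate 2 was left out (FDR 0.069 to 0.23). The siTAZ #1 value of SMAD7 passed in 7 of 16 alternatives. Among them were DESeq2 (FDR 0.0038), leaving out the stretch that starts at RANGAP1 (FDR 0.0096) and leaving out either siTAZ #1 library. SMURF2, a ubiquitin ligase for SMADs and receptors, was called lower with siTAZ #1 and higher with siTAZ #2. ID1, an early target of BMP signaling, was at 10.4 to 10.6 CPM with siNTC and at 15.9 to 20.3 CPM in the siTAZ libraries (log2 fold changes 0.75, FDR 0.038, and 0.84, FDR 0.021), but both calls were lost without siNTC replicate 1 (FDR 0.17 and 0.12) or siNTC replicate 2 (FDR 0.18 and 0.12) and without either siTAZ #2 library (FDR 0.058 to 0.12).

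**Figure D5:**
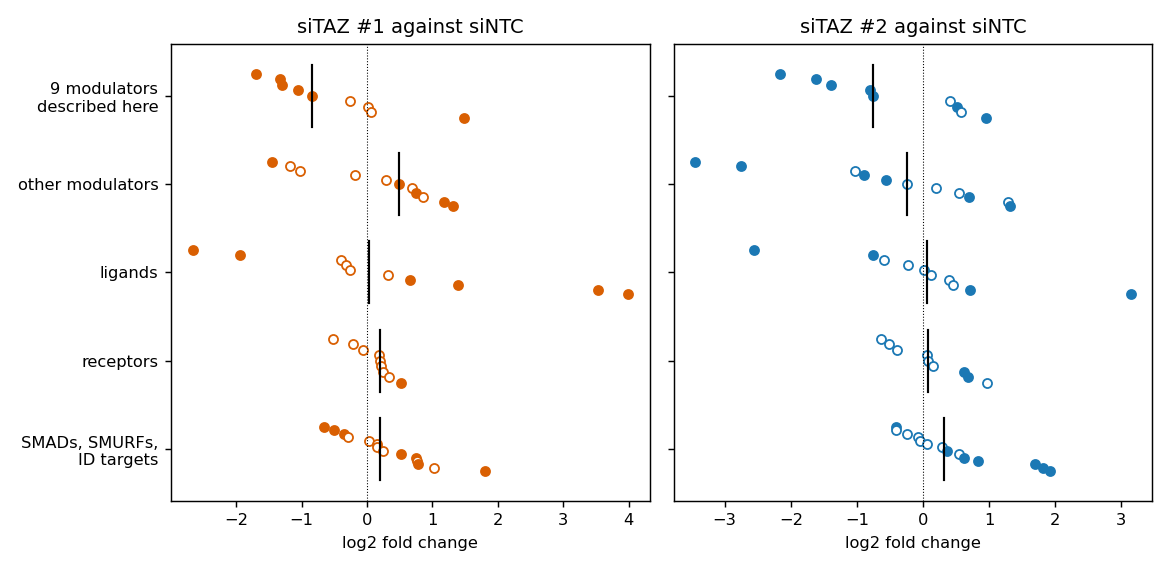
Log2 fold change against siNTC (x axis, with its own range in each panel) of each tested gene of the 9 modulators and of 4 further pathway lists, with the list's median as a black bar and filled points for an FDR under 0.05. The medians of the 9 modulators lie at -0.84 and -0.75, and those of the other lists lie between -0.24 and 0.49. Of the 9, 5 are on the study's list of lowered genes, chosen on these libraries, so the contrast of medians is not independent evidence.

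The genes whose pattern over the 6 libraries was closest to that of GREM1, FST or CRIM1 were listed as well, by Euclidean distance of log2 CPM centred on siNTC among 9486 candidates. GREM1 was closest to DDIT4 (distance 0.31) and FAM107B (0.31), FST to HMGN2 (0.31) and ASNS (0.41), and CRIM1 to MICALL1 (0.34) and FAM107B (0.42). These 5 genes were lower with both siRNAs and, like the lowered members, are on the list that the study chose on these libraries. With siTAZ #1, the calls of HMGN2 (FDR 0.090 and 0.079) and of ASNS (FDR 0.066 and 0.064) were lost without siNTC replicate 1 or siNTC replicate 2.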

How the data were processed

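RNA from HFL-1 cells was sequenced in 6 libraries on an Ion Proton. The deposited values are raw counts of reads per gene, made by the authors by alignment to hg19 with TMAP and counting with HTSeq 0.6.1. How strand was treated in the counting is not given in the sources used here. Of 23368 entries, 13 carry a date in place of a symbol and were left out (0.0458% to 0.0506% of a library's counts).

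Counts were filtered with filterByExpr and scaled by TMM. One fit of all 6 libraries was tested by quasi-likelihood in edgeR 4.0.16 (R 4.3.3), with Benjamini-Hochberg adjustment over 14053 genes and a threshold of FDR 0.05. The standard error is the log2 fold change divided by the square root of F. The siRNAs were tested against siNTC and against each other. With 2 libraries per group an exact permutation test cannot go below p = 0.333. Levels per kb use the union of a gene's exons in GENCODE on GRCh37. The scripts were tested on simulated counts without the stretch of near-missing counts and with a lower dispersion than the common one of the reported fit. That test cannot show how the FDRs behave with the stretch present.

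The members, the pathway lists and the rules were chosen with earlier results of these data known. The genes given with values are the 9 members, WWTR1, at most 12 listed genes that passed with both siRNAs in 1 direction or differed between them, and for GREM1, FST and CRIM1 the 2 nearest genes with a mean of at least 10 CPM. BMP4, INHBA and FEZ2 are outside the rule. Other listed genes that passed are named without values. Alternatives were DESeq2 1.42.0, edgeR's exact test, RLE or library-total scaling, no filter, a minimum mean count of 50, fits of only the 4 libraries compared, a replicate block, each library left out, and leaving out the stretch of near-missing counts that starts at RANGAP1. An offset for GC content and a crossed block were chosen after seeing the data. Same-numbered libraries were not treated as pairs in the reported fit. The correlations of same-numbered deviations over 9493 genes were 0.01 (siNTC with siTAZ #1), -0.0069 (siNTC with siTAZ #2) and -0.40 (siTAZ #1 with siTAZ #2). These values cannot show how libraries were processed together, since the numbers need not follow the processing, and a shared batch was not tested. Proteins were not analysed here.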

Additional observations from a re-analysis of the deposited data

Results flagged for a closer look

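Results that differed between the siRNAs by a test of the difference itself are given here as siTAZ #1 minus siTAZ #2 on the log2 scale, with the FDR of edgeR's quasi-likelihood test. Among the 9 modulators these were FST at 1.10 (FDR 0.0013), TWSG1 at 0.96 (FDR 0.0028), GREM1 at 0.31 (FDR 0.032), FSTL1 at -0.58 (FDR 0.015) and FSTL3 at -1.21 (FDR 0.0030). WWTR1 itself differed by -0.70 (FDR 0.0050). The remaining WWTR1 was thus lower with siTAZ #1. Of the genes lowered by both siRNAs, FSTL1 was also lower with siTAZ #1, while FST and GREM1 were lower with siTAZ #2. CRIM1 (-0.30, FDR 0.075) and RGMB (-0.03, FDR 0.87) did not pass. The GREM1 difference was not called in 8 of 16 alternatives and that of FSTL1 in 6. The WWTR1 difference was not called with edgeR's exact test (FDR 0.24).

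Among the other pathway genes, BMP2 differed by 3.27 (FDR 0.00050), BMPER by 2.26 (FDR 0.028), FBN1 by 1.64 (FDR 0.00062), TGFBR3 by 1.30 (FDR 0.0037) and LTBP1 by 1.05 (FDR 0.0013). GDF5 differed by -2.44 (FDR 0.00053), SMAD6 by -1.15 (FDR 0.010) and SMAD7 by -1.04 (FDR 0.015). The SMAD6 and SMAD7 differences did not pass without siTAZ #2 replicate 2 (FDR 0.070 and 0.099). That of BMPER did not pass without siNTC replicate 1 (FDR 0.064), siNTC replicate 2 (FDR 0.066) or siTAZ #2 replicate 1 (FDR 0.087). A further 7 listed genes passed the same test, with ENG, SMURF1 and SMURF2 lower and BMP5, ACVR2A, GDF15 and SMAD9 higher with siTAZ #1 than with siTAZ #2. No cause of these differences was tested.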

How the results depend on the processing

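For the 9 modulators, 27 log2 differences gave 432 values under 16 alternatives. Of these, 390 kept their direction and their side of the threshold, 26 lost and 4 gained a call, and 12 changed sign, and 16 of the 27 kept both throughout. In siTAZ #2 against siNTC, the members called lower numbered 3 to 5 and those called higher 0 to 2 with 1 library left out, where 714 to 3011 lower and 614 to 3031 higher calls were made over all 14551 to 14643 genes tested, and 1 was called higher with the replicate block. Among the members, that block ended 2 calls, those of TWSG1 with siTAZ #2 (FDR 0.051) and of the GREM1 difference between the siRNAs (FDR 0.073). In siTAZ #1 against siTAZ #2, 1 member was called lower in the fit of 4 libraries and with edgeR's exact test, and 1 to 3 with 1 library left out (775 to 2828 lower calls over all genes). The crossed block, tried because of the correlation of -0.40, left 2 called lower and 2 higher. Sign changes affected only values that had not passed the test. For siTAZ #1, BAMBI went to -0.010 (DESeq2), -0.013 (no filter), -0.0098 (fit of 4 libraries), -0.016 (exact test) and -0.024 (replicate block), and ranged from -0.76 to 0.64 with 1 library left out, while NOG ranged from -0.39 to 0.39. The RGMB difference ranged from -0.17 to 0.13 and BMP4 with siTAZ #2 from -0.32 to 0.44. With canonical transcript lengths, siNTC levels per kb were 251.9 CPM for FST, 299.4 for FSTL1, 77.0 for CRIM1, 75.6 for RGMB, 48.3 for TWSG1 and 12.7 for FSTL3. The cause of lost calls was not tested. Leaving out a library or fitting 4 libraries uses fewer samples. For siTAZ #2, however, fitting 4 libraries gave more calls over all genes (3024 lower and 3073 higher, against 2021 and 1983). The fits without a siNTC or siTAZ #2 library still held the stretch of near-missing counts, and its part in their lost calls was not tested. Over all genes, siTAZ #1 gave 1374 lower and 1515 higher calls against siNTC. Without the stretch that starts at RANGAP1, 1997 lower and 2110 higher calls were made among 13460 genes tested. The exact test gave 492 and 569, the replicate block 823 and 868, and leaving out 1 library 277 to 2604 lower and 279 to 2496 higher. For siTAZ #2, 2021 lower and 1983 higher calls became 3165 and 3259 with the exact test, 3024 and 3073 in the fit of 4 libraries and 1420 and 1329 with the replicate block, and they were fewest without siNTC replicate 2 (714 and 614). For siTAZ #1 against siTAZ #2, 1883 and 2137 became 703 and 795 with the exact test, and 1022 to 2831 were higher with 1 library left out.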
